A study of Homo sapiens with 10 samples.

Results

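FUT8 and 9 other genes of N-glycan assembly were followed in RNA-seq libraries of a drug-sensitive and a drug-resistant bladder cancer cell line. The 10 genes, out of 61533 in the count tables, were GMDS, GFUS and SLC35C1 (supply of activated fucose), FUT8 (core fucosylation), MGAT1, MGAT2, MGAT4B and MGAT5 (antennae), B4GALT1 (galactose) and ST6GAL1 (sialic acid). They were listed by name around FUT8, and they were chosen by a reading that had their measured differences between T24R2 and T24, in these same libraries, in view. Their differences between the lines are therefore given as a description without a test. All 10 passed the filter on low counts that left 16181 genes. The groups were 5 libraries of T24, a cisplatin-sensitive line from a human bladder carcinoma, and 5 libraries of T24R2, a cisplatin-resistant line made from T24 by serial exposure to the drug. All libraries came from day 3 of culture, and the labels name no edited gene or allele. The study's methods keep T24R2 in cisplatin, whereas the labels list the same medium without drug for both lines, so line and drug exposure cannot be told apart. Each condition is represented by 1 cell line. The labels do not say whether replicates were separate cultures, so the tests measure the spread between libraries, which may be technical.

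N-glycans are sugar trees that the endoplasmic reticulum attaches to asparagine residues of secreted and membrane proteins. In the Golgi they are trimmed, then rebuilt: GlcNAc-transferases start the antennae, galactose and sialic acid extend and cap them, and FUT8 joins a fucose to the innermost GlcNAc, the core fucose. FUT8 is the human enzyme known for that linkage. It uses GDP-fucose, which GMDS and GFUS make from GDP-mannose in the cytosol and SLC35C1 carries into the Golgi. Core fucose and branched antennae are found on integrins, growth factor receptors and other surface proteins of epithelial tumours, where they affect receptor signalling, adhesion and binding by galectins.

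Promoter windows are shown for the 3 members on which the values below turn most: FUT8, whose level differed most between the lines, MGAT2, which lies almost wholly under a gene of the opposite strand, and B4GALT1, the member with the next lowest log2 fold change. The windows come from RefSeq on GRCh38.p14 and run from 250 bases before to 50 bases after an annotated transcript start, on the strand of the gene. Capitals mark the letters CCAAT or ATTGG (the CCAAT box on either strand) and GGGCGG or CCGCCC (the GC box on either strand). The windows are chr14:65410342-65410641, chr14:65411613-65411912 and chr14:65412480-65412779 for FUT8 (plus strand), chr14:49620549-49620848 for MGAT2 (plus strand) and chr9:33167287-33167586 for B4GALT1 (minus strand).
FUT8 start 1: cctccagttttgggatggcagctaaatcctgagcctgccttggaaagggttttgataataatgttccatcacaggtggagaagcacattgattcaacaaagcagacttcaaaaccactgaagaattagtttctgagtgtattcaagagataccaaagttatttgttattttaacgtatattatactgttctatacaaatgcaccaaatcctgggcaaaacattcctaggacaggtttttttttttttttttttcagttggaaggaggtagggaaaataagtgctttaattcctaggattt
FUT8 start 2: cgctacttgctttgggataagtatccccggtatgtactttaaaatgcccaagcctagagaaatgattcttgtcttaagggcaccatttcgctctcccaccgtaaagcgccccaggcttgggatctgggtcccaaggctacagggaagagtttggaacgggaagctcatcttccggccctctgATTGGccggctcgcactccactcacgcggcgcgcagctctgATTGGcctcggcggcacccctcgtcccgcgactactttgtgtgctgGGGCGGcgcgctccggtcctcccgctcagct
FUT8 start 3: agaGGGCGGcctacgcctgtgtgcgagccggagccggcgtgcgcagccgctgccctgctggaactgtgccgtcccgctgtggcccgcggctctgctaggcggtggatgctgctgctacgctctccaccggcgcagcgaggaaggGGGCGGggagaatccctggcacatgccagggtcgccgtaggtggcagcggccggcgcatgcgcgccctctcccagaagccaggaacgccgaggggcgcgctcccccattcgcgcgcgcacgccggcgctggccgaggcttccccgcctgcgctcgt
MGAT2 start: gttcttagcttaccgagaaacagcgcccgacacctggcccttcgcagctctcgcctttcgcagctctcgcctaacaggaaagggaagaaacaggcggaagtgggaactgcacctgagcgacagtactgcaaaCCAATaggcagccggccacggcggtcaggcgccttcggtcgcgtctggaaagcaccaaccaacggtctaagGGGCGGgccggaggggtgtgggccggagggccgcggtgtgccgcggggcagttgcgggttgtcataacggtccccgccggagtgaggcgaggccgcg
B4GALT1 start: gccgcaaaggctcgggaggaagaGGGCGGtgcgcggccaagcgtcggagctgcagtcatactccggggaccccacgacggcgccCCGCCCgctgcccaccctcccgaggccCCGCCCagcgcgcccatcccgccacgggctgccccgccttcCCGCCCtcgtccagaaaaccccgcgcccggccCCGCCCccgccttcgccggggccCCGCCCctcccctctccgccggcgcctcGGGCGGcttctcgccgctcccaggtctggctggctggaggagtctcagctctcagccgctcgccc

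The FUT8 windows differed from each other in base composition. The first held 36.0% G+C, 1 CpG and neither motif. The second, 1271 bases downstream, held 59.7% G+C, 23 CpG, 2 CCAAT boxes and 1 GC box. The third, 2138 bases from the first, held 74.7% G+C, 40 CpG and 2 GC boxes. All 300 bases of the second window and 211 of the third lie in the exon of FUT8-AS1, a long noncoding gene on the opposite strand. The MGAT2 window held 1 CCAAT box and 1 GC box in 65.7% G+C, and its last 34 bases lie in the exon of an opposite-strand gene. The B4GALT1 window shown held 7 GC boxes in 78.3% G+C. A second B4GALT1 window, 177 bases away and not printed, held 6 GC boxes in 77.7% G+C. RefSeq windows of 9 members were taken, with 22 windows in all. Member windows on chromosome 8, where GFUS lies, were left out, so GFUS is not among the 9. A GC box was present in 15 of the 22 windows (68.2%) and in 45.0% of 35116 windows of the same length over all genes. A CCAAT box was present in 4 of the 22 windows (18.2%) and in 34.6% of all windows. Several windows of a gene overlap or lie close together, and a match is a run of letters, not a measured binding site.

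Total counts per library were 9257843 to 10840954, and each of the 20 pairs of libraries within a line differed by more than sampling noise, with chi-square values per degree of freedom from 2.002 to 6.99. The deposited counts were scaled to CPM (counts relative to library size) with TMM library sizes, and the spread between replicates was 6.61% (biological coefficient of variation). The median log2 fold change of all tested genes, T24R2 against T24, was 0.01, and it was 0.18 without TMM scaling. Of 16 urothelial and epithelial markers, 10 passed the filter and all 10 were called lower in T24R2, with summed levels of 5099 to 5813 CPM in T24 and 3028 to 3233 CPM in T24R2. The keratins KRT7, KRT8 and KRT18 were at 6947 counts or more in every library, whereas KRT19, GATA3 and ELF3 were at 5 counts or fewer in every T24R2 library, and CDH1, UPK1B and UPK3A were at 3 counts or fewer in all libraries. Of 7 markers of blood and endothelial cells, CDH5 and PECAM1 passed the filter and were called lower, and the summed levels of the 7 were 226 to 278 CPM in T24 and 1.96 to 5.18 CPM in T24R2. CDH5 had 2037 to 2599 counts in T24 and 1 to 9 in T24R2, while VWF, another endothelial marker, had 8 counts or fewer in every library. Of the blood markers, which did not pass the filter, CD3E had 3 counts or fewer in every library, PTPRC had 0 to 1 in T24 and 2 to 10 in T24R2, and CD68 had 1 to 8 in T24 and 1 to 17 in T24R2. The part of these marker differences in the results below was not tested. In bulk RNA, fewer cells of a type and less RNA per cell cannot be told apart.

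Among all 16181 tested genes, 52.8% had an absolute log2 fold change over 0.5, the fold minimum of the study, and in 61.2% the libraries of the lines did not overlap. Of the 10 members, 6 (60%) were past that minimum, with 4 lower and 2 higher in T24R2, and 8 (80%) had libraries that did not overlap. FUT8, B4GALT1, SLC35C1 and MGAT4B were the 4 lower members. GFUS and ST6GAL1 were the 2 higher members. MGAT1, MGAT2, MGAT5 and GMDS lay within 0.5 on the log2 scale. The median log2 fold change of the members was -0.31. Nothing is read from these shares, since the same contrast was in view when the members were chosen. Without TMM scaling, MGAT2 and GMDS were also past the minimum (log2 fold changes of 0.61 and 0.58), which made the split 4 higher and 4 lower.

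**Figure D1:**
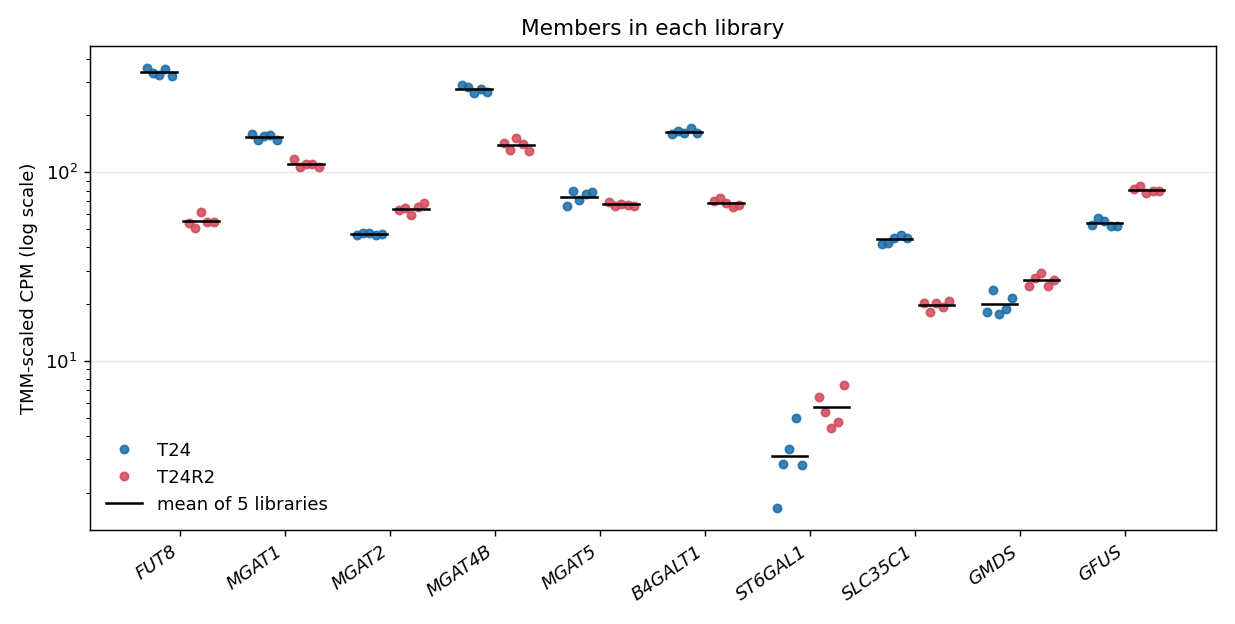
Level of the 10 members in each library, in TMM-scaled CPM on a log axis. Points are the 5 T24 and the 5 T24R2 libraries and bars their means. The lines are apart for 8 members and overlap for MGAT5 and ST6GAL1, and the widest gap is that of FUT8, at 324 to 357 CPM in T24 and 50.6 to 61.9 CPM in T24R2.

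The genes of GDP-fucose supply had values in both directions. GMDS (ENSG00000112699.11, minus strand of chromosome 6 of hg38, 1623806 to 2245605) encodes GDP-mannose 4,6-dehydratase, the enzyme that opens the route from GDP-mannose. Its counts in T24 replicates 1 to 5 were 175, 226, 155, 175 and 200, and in T24R2 replicates 1 to 5 they were 272, 316, 305, 281 and 274. Every T24R2 library was above every T24 library, and the means were 20.01 ± 2.59 CPM in T24 and 26.7 ± 1.80 CPM in T24R2 (SD, n = 5 per line), which is 0.42 as log2 fold change (standard error, SE, 0.09). GFUS (ENSG00000104522.16, minus strand of chromosome 8, 143612618 to 143618048) encodes the epimerase and reductase that completes GDP-fucose. Its counts were 505, 544, 480, 485 and 483 in T24 and 887, 972, 807, 889 and 812 in T24R2. The lines were apart, with 53.8 ± 2.24 CPM in T24 and 80.4 ± 2.56 CPM in T24R2 (SD, n = 5 per line), which is 150% ± 4.77 of the T24 mean (log2 fold change 0.58, SE 0.06).

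SLC35C1 (ENSG00000181830.9, plus strand of chromosome 11, 45804072 to 45813016), the Golgi GDP-fucose transporter, lay in the other direction. Its counts were 403, 403, 391, 431 and 414 in T24 and 221, 210, 211, 216 and 210 in T24R2. No T24R2 library came near the T24 range, and the level in T24R2 was 44.8% ± 2.27 of the T24 mean (SD, n = 5), or -1.16 as log2 fold change (SE 0.08). The 2 synthesis enzymes were thus measured higher and the carrier lower in the same libraries. Per exon length, the ratio of GMDS to GFUS was 0.318 ± 0.0354 in T24 and 0.285 ± 0.0237 in T24R2 (SD, n = 5 per line), and these ranges overlapped.

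Of the 10 other genes of GDP-fucose and GDP-mannose supply and of fucose removal, 3 were called, all lower, by the quasi-likelihood test of edgeR (adjusted p under 0.05 and a log2 fold change past 0.5 either way). Over all tested genes, 51.4% were called, 26.5% lower and 24.9% higher. PMM2, the phosphomannomutase whose loss causes the most common congenital disorder of glycosylation, fell from 133 ± 7.16 to 55.9 ± 4.58 CPM (SD, n = 5 per line), which is -1.25 as log2 fold change (SE 0.06, adjusted p = 3.4e-22 by the quasi-likelihood method of edgeR and Benjamini-Hochberg). Its paralog PMM1 fell by 0.78 on the log2 scale (SE 0.06, edgeR quasi-likelihood adjusted p = 1.6e-14). The third was FUCA1, the lysosomal fucosidase, named after its values were seen, with 45.1 ± 3.13 CPM in T24 and 28.3 ± 3.61 CPM in T24R2 (SD, n = 5 per line). FCSK and FPGT, which recycle free fucose into GDP-fucose, had log2 fold changes of -0.08 and 0.38 and were not called. A gene on the opposite strand covers 13.7% of the exon bases of PMM2.

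FUT8 (ENSG00000033170.17, plus strand of chromosome 14, 65410592 to 65744121) showed the largest difference of the members. Its counts in T24 replicates 1 to 5 were 3443, 3192, 2862, 3277 and 3001. In T24R2 replicates 1 to 5 they were 584, 584, 645, 609 and 552. The lowest T24 library was 5.24 times the highest T24R2 library in CPM, so the lines were far apart relative to the spread within each. The mean was 339 ± 14.9 CPM in T24 and 54.9 ± 4.18 CPM in T24R2 (SD, n = 5 per line), or 16.2% ± 1.23 of the T24 mean, 6.18 times lower (log2 fold change -2.63, SE 0.05). Leaving out any single library gave log2 fold changes from -2.67 to -2.59, and leaving out TMM scaling gave -2.47.

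The place of FUT8 among the fucosyltransferases also differed between the lines. Levels are compared between genes per exon length, as RPKM (TMM-scaled CPM per kilobase of all annotated exons). FUT8 made up 46.2% ± 0.910 of the summed RPKM of 13 fucosyltransferases in T24 and 19.8% ± 0.623 in T24R2 (SD, n = 5 per line). POFUT1 and POFUT2 fucosylate folded repeats in the endoplasmic reticulum and do not act on N-glycans. Without these enzymes, the share of FUT8 was 74.3% ± 1.49 in T24 and 58.2% ± 1.61 in T24R2, and the ranges did not overlap. The 11 genes left, which include FUT8, were not sorted by whether they act on N-glycans. The summed RPKM of those 11 genes was 65.5 ± 2.14 in T24 and 13.5 ± 0.985 in T24R2 (SD, n = 5 per line), and the lowest share of FUT8 in any library was 56.7%.

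Of the 12 other fucosyltransferases, 7 passed the filter and 4 were called, all lower. That is 57.1% of the 7, beside 26.5% called lower and 24.9% called higher over all tested genes. FUT11, grouped by sequence with the alpha-1,3 family, fell from 55.7 ± 4.35 to 11.7 ± 1.22 CPM (SD, n = 5 per line), which is -2.25 as log2 fold change (SE 0.09, edgeR quasi-likelihood adjusted p = 9.2e-25). FUT1, which makes the H antigen of blood group O, had 41 to 71 counts in T24 and 6 to 19 in T24R2 (log2 fold change -2.41, SE 0.26, edgeR quasi-likelihood adjusted p = 1.1e-10). POFUT2, which acts on thrombospondin repeats, fell by 1.17 on the log2 scale (SE 0.06, edgeR quasi-likelihood adjusted p = 1.4e-20). FUT4, an alpha-1,3-fucosyltransferase of Lewis X antigens, was the fourth, with a log2 fold change of -0.84 (SE 0.15). Exons of opposite-strand genes cover 11.9% of those of FUT11 and 10.9% of those of FUT4.

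The remaining fucosyltransferases differed less or were near 0. POFUT1, which fucosylates EGF repeats such as those of Notch, had 149 ± 6.04 CPM in T24 and 121 ± 5.85 CPM in T24R2 (SD, n = 5 per line), which is -0.30 as log2 fold change and under the fold minimum. FUT10 had a log2 fold change of -0.19 (edgeR quasi-likelihood adjusted p = 0.22). FUT2, the secretor gene, had a log2 fold change of -0.57 that was not called (edgeR quasi-likelihood adjusted p = 0.061). FUT2 was called without T24 replicate 2 (-0.72) and without T24R2 replicate 1 (-0.65). FUT3, FUT5, FUT6, FUT7 and FUT9 did not pass the filter and had 11 counts or fewer in every library.

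**Figure D2:**
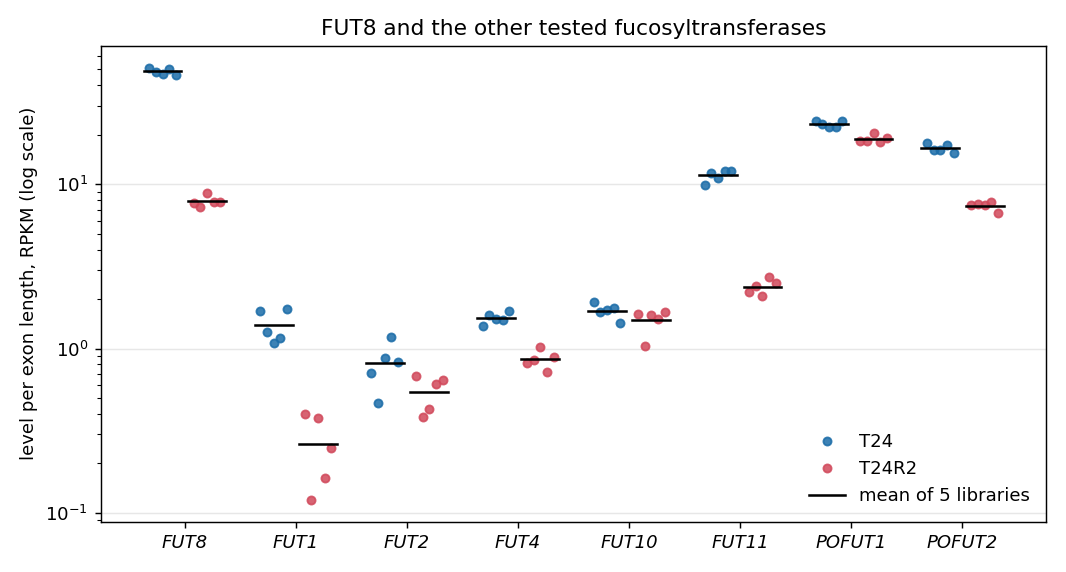
FUT8 and the 7 other fucosyltransferases that passed the filter, as RPKM on a log axis. Points are the 5 libraries of each line and bars their means. FUT8 stands highest in T24 at 48.6 RPKM, and in T24R2 at 7.87 RPKM it lies below POFUT1 at 18.9 RPKM.

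The antennae are started by MGAT1, which opens the hybrid and complex types, and by MGAT2, which opens the complex type. MGAT1 (ENSG00000131446.17, minus strand of chromosome 5, 180784780 to 180815652) had counts of 1546, 1408, 1354, 1473 and 1371 in T24 and 1276, 1231, 1148, 1245 and 1083 in T24R2. The lines did not overlap, and the level in T24R2 was 71.6% ± 2.79 of the T24 mean (SD, n = 5), or -0.48 as log2 fold change (SE 0.05). MGAT2 (ENSG00000168282.6, plus strand of chromosome 14, 49620799 to 49623481) had counts of 447, 454, 417, 430 and 435 in T24 and 687, 745, 615, 735 and 697 in T24R2. All T24R2 libraries were above all T24 libraries, and the means were 47.0 ± 0.695 CPM in T24 and 64.1 ± 3.49 CPM in T24R2 (SD, n = 5 per line), which is 0.45 as log2 fold change (SE 0.06). Per exon length, the ratio of MGAT2 to MGAT1 was 1.31 ± 0.0637 in T24 and 2.50 ± 0.197 in T24R2 (SD, n = 5 per line), and the ranges did not overlap. A gene on the opposite strand covers 92.0% of the exon bases of MGAT2. The MGAT2 values, also in this ratio, therefore stand for both genes together.

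MGAT4B and MGAT5 add the further antennae of triantennary and tetraantennary glycans. MGAT4B (ENSG00000161013.17, minus strand of chromosome 5, 179797597 to 179806952) makes the beta-1,4 branch. Its counts were 2789, 2691, 2299, 2577 and 2461 in T24 and 1560, 1517, 1592, 1590 and 1318 in T24R2. No library of one line reached the range of the other, and the level in T24R2 was 50.7% ± 3.42 of the T24 mean (SD, n = 5), or -0.98 as log2 fold change (SE 0.05). MGAT5 (ENSG00000152127.9, plus strand of chromosome 2, 134119983 to 134454621) makes the beta-1,6 branch, a preferred base of poly-N-acetyllactosamine chains. Its counts were 636, 752, 620, 709 and 726 in T24 and 762, 766, 706, 753 and 675 in T24R2.

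The MGAT5 values of the lines overlapped in CPM, at 74.1 ± 5.58 in T24 and 67.5 ± 1.46 in T24R2 (SD, n = 5 per line). Its log2 fold change of -0.13 (SE 0.06) turned to 0.03 without TMM scaling, so no direction is given for it. Per exon length, the ratio of MGAT5 to MGAT4B was 0.169 ± 0.0157 in T24 and 0.304 ± 0.0172 in T24R2 (SD, n = 5 per line), and the ranges did not overlap. This ratio is taken within a library and does not depend on the scaling between libraries.

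Of the 5 other GlcNAc-transferases of this step, 2 passed the filter. MGAT4A, the paralog of MGAT4B with the same linkage, was called higher, with counts of 3, 2, 1, 0 and 0 in T24 and 92, 102, 84, 118 and 95 in T24R2. Summed over the libraries these are 6 and 491 counts, a ratio of 70.1 after scaling, with a 95% exact (Clopper-Pearson) interval of 32.0 to 192 that covers counting error only. MGAT4A still made up 3.58% ± 0.479 of the summed RPKM of the MGAT4 pair in T24R2 (SD, n = 5), against 0.0257% ± 0.0268 in T24. The summed RPKM of the pair was 50.2 ± 2.07 in T24 and 26.4 ± 1.68 in T24R2 (SD, n = 5 per line), so MGAT4B set the level of the pair in both lines. MGAT5B, a brain-enriched paralog of MGAT5 that acts on O-mannose glycans, was called lower, from 11.8 ± 1.96 to 5.50 ± 0.876 CPM (SD, n = 5 per line). This is a log2 fold change of -1.10 (SE 0.15, edgeR quasi-likelihood adjusted p = 1.8e-08). MGAT3, which adds the bisecting GlcNAc that blocks further branching, had 4 counts or fewer in every library.

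B4GALT1 (ENSG00000086062.13, minus strand of chromosome 9, 33104082 to 33167356) adds galactose to the antennae. Its counts were 1532, 1568, 1414, 1591 and 1496 in T24 and 764, 843, 713, 731 and 685 in T24R2. The lines were well apart, and the mean was 164 ± 4.68 CPM in T24 and 68.8 ± 2.99 CPM in T24R2 (SD, n = 5 per line), or 42.1% ± 1.82 of the T24 mean (log2 fold change -1.25, SE 0.05). Of 11 tested genes of galactosylation and chain extension besides B4GALT1, 4 were called lower (36.4%) and 1 higher (9.09%). Over all tested genes these shares were 26.5% and 24.9%. B4GALT2, B4GALT3 and B4GALT4 were among the lower genes. B4GALT2 fell from 121 ± 4.71 to 58.1 ± 3.42 CPM (SD, n = 5 per line), which is -1.06 as log2 fold change (SE 0.05, edgeR quasi-likelihood adjusted p = 1.3e-20).

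The Golgi carrier of UDP-galactose, SLC35A2, had a log2 fold change of -0.08 and was not called. B4GALT1 made up 46.4% ± 1.28 of the summed RPKM of B4GALT1 to B4GALT4 in T24 and 40.7% ± 1.43 in T24R2 (SD, n = 5 per line). The summed RPKM of these 4 genes was 72.0 ± 0.832 in T24 and 34.6 ± 1.29 in T24R2 (SD, n = 5 per line). The one gene called higher was GCNT2, which branches the extended chains, with 5 to 15 counts in T24 and 17 to 33 in T24R2. B4GALT3, B4GALT4, SLC35A2 and GCNT2 were named after their values were seen, and 28.7% of the exon bases of B4GALT3 are covered from the opposite strand.

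ST6GAL1 (ENSG00000073849.16, plus strand of chromosome 3, 186930325 to 187078553), which caps galactose with alpha-2,6-linked sialic acid, was the lowest member in both lines. Its counts were 16, 27, 30, 46 and 26 in T24 and 70, 62, 46, 53 and 76 in T24R2. T24 replicate 4 and T24R2 replicate 3 had the same count of 46, and the CPM ranges of 1.66 to 4.95 and 4.41 to 7.47 overlapped. The log2 fold change was 0.86 with an SE of 0.22, the widest of the members. Leaving out any single library gave 0.69 to 1.08. Its coefficient of variation was 38.2% in T24 and 22.2% in T24R2, against at most 12.9% in any other member, so its value is the least certain of the 10.

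Of 13 tested sialylation genes besides ST6GAL1, 6 were called lower (46.2%) and 2 higher (15.4%), beside 26.5% and 24.9% of all tested genes. ST3GAL4, which caps N-glycans, fell from 37.7 ± 1.58 to 7.92 ± 0.986 CPM (SD, n = 5 per line), which is -2.24 as log2 fold change (SE 0.10, edgeR quasi-likelihood adjusted p = 6.8e-23). ST3GAL1, which acts mainly on O-glycans, fell by 1.07 on the log2 scale (SE 0.07, edgeR quasi-likelihood adjusted p = 8.6e-17). NEU1, the lysosomal sialidase, had a log2 fold change of 0.50 just past the minimum. It was not called by DESeq2 (0.50, under the minimum) or without T24 replicate 1 (0.46), T24 replicate 2 (0.47), T24 replicate 3 (0.43), T24R2 replicate 1 (0.48) or T24R2 replicate 3 (0.47). ST6GAL2, the paralog with the linkage of ST6GAL1, had a count of 0 in every library, which allows up to 3 counts per library.

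Within a line, the members were ordered by level per exon length, gene by gene. In T24, MGAT4B (50.2 ± 2.06 RPKM) and FUT8 (48.6 ± 2.14 RPKM) led and overlapped. They were followed by B4GALT1 at 33.4, MGAT2 at 17.5, GFUS at 14.9, MGAT1 at 13.4, SLC35C1 at 11.4, MGAT5 at 8.46, GMDS at 4.75 and ST6GAL1 at 0.282 RPKM. Each of these neighbours in the order was apart from the next in every library.

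In T24R2, MGAT4B still led at 25.4 ± 1.72 RPKM (SD, n = 5), and it overlapped with MGAT2 at 23.9 ± 1.30, which overlapped with GFUS at 22.3 ± 0.711. B4GALT1 at 14.1 and MGAT1 at 9.59 RPKM came next. FUT8 at 7.87 ± 0.599 and MGAT5 at 7.70 ± 0.167 RPKM overlapped. GMDS at 6.34, SLC35C1 at 5.09 and ST6GAL1 at 0.510 RPKM closed the order. FUT8 went from place 2 to place 6, and the ratio of MGAT1 to FUT8 went from 0.275 ± 0.00733 to 1.22 ± 0.0942 (SD, n = 5 per line). Exon length here is the union over all annotated isoforms, which makes genes with long alternative exons look lower than their main transcript would. The place of MGAT2 in either line rests on values that stand for it and its opposite-strand gene together.

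**Figure D3:**
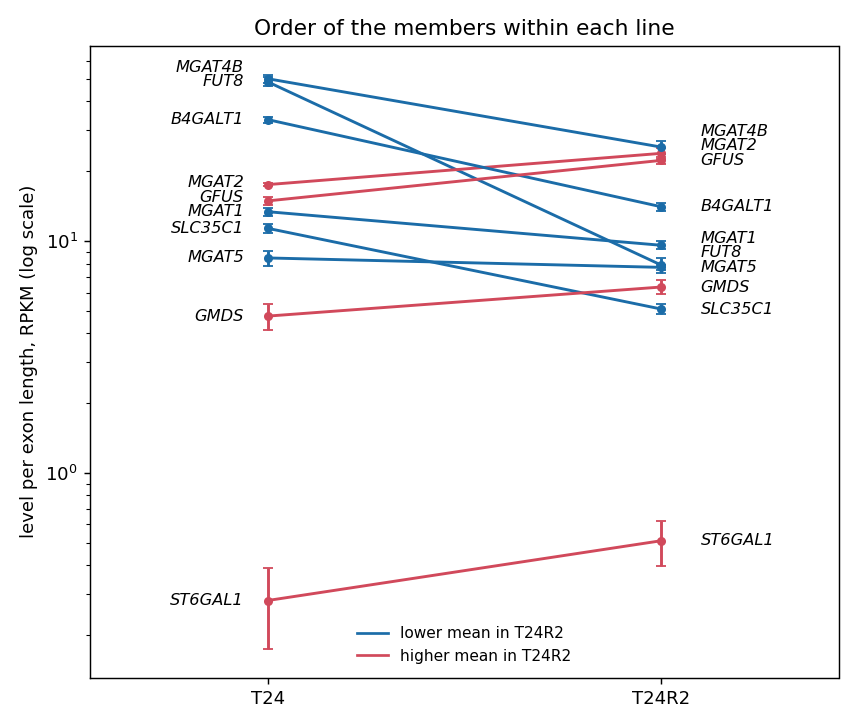
Mean level of each member per exon length (RPKM, log axis) in T24 and T24R2, with SD over 5 libraries as error bars. Blue lines join members with a lower mean in T24R2 and red lines those with a higher mean. FUT8 goes from 48.6 to 7.87 RPKM and crosses B4GALT1, MGAT2, GFUS and MGAT1, and MGAT4B leads in both lines.

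Counting used strand option 1 of featureCounts, while the library kit is not described in the labels as strand-specific, so fragments of genes that share bases on opposite strands cannot be told apart. Exons of an opposite-strand gene overlap those of 5 members. At MGAT2 the overlap was nearly complete: ENSG00000258377 (minus strand, 49620815 to 49623480) shares 2469 bases, 92.0% of the exon bases of MGAT2 and 100% of its own. It had a mean of 421 counts in T24 and 642 in T24R2, or 96.5% and 92.3% of the MGAT2 counts, and its log2 fold change of 0.38 (SE 0.07) lay beside the 0.45 of MGAT2. Taking its counts off was not possible in every library, so the MGAT2 values stand for both genes together.

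At FUT8, FUT8-AS1 (ENSG00000276116.2, minus strand, 65411170 to 65412690) shares 824 bases, 11.8% of the exon bases of FUT8 and 54.2% of its own. FUT8-AS1 had 200 to 287 counts in T24 and 17 to 42 in T24R2, or -3.46 as log2 fold change (SE 0.16, edgeR quasi-likelihood adjusted p = 3.2e-22). Its counts were 7.81% of those of FUT8 in T24 and 4.37% in T24R2. With all of them taken off, the log2 ratio of the FUT8 means was -2.57. At B4GALT1, B4GALT1-AS1 shares 99 bases and had a log2 fold change of -1.25, the same as that of B4GALT1 at this rounding, with a mean of 164 counts in T24 and 80.6 in T24R2. ENSG00000280161 shares 395 bases with MGAT1 but had 33 counts or fewer in every library. SQSTM1 shares 105 bases with MGAT4B and had more counts than it in the mean of each line. No opposite-strand exon overlaps MGAT5, ST6GAL1, SLC35C1, GMDS or GFUS.

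**Figure D4:**
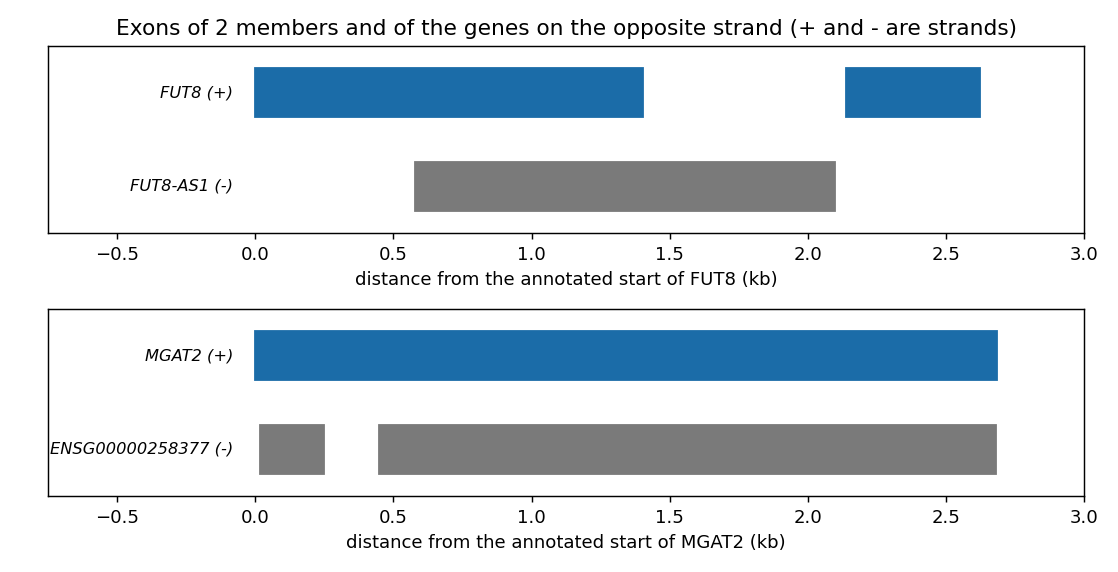
Exons of FUT8 and FUT8-AS1 (upper panel, first 3 kb of FUT8) and of MGAT2 and ENSG00000258377 (lower panel), by distance in kb from the annotated start of the member. Blue boxes are exons of the member on the plus strand and grey boxes exons of the gene on the minus strand. FUT8-AS1 shares 824 bases with FUT8, and ENSG00000258377 shares 2469 bases with MGAT2.

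The wider pathway was described with 12 lists of 142 other genes, of which 123 passed the filter. By edgeR's quasi-likelihood test, 55 of the 123 (44.7%) were called, 41 lower (33.3%) and 14 higher (11.4%). The median log2 fold change of the 123 was -0.19. Of all tested genes, 51.4% were called, 26.5% lower and 24.9% higher, and the counts of each list stand beside these shares. Without TMM scaling the split was 32 lower and 19 higher, while over all genes it went from 4282 lower and 4027 higher to 3431 lower and 5206 higher. The lists differed in how many of their genes were called. Synthesis of the lipid-linked precursor had 4 of 22 called (2 higher, 2 lower, median -0.03), and glycoproteins known to carry core fucose or branches had 9 of 12 called (2 higher, 7 lower, median -0.62).

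**Figure D5:**
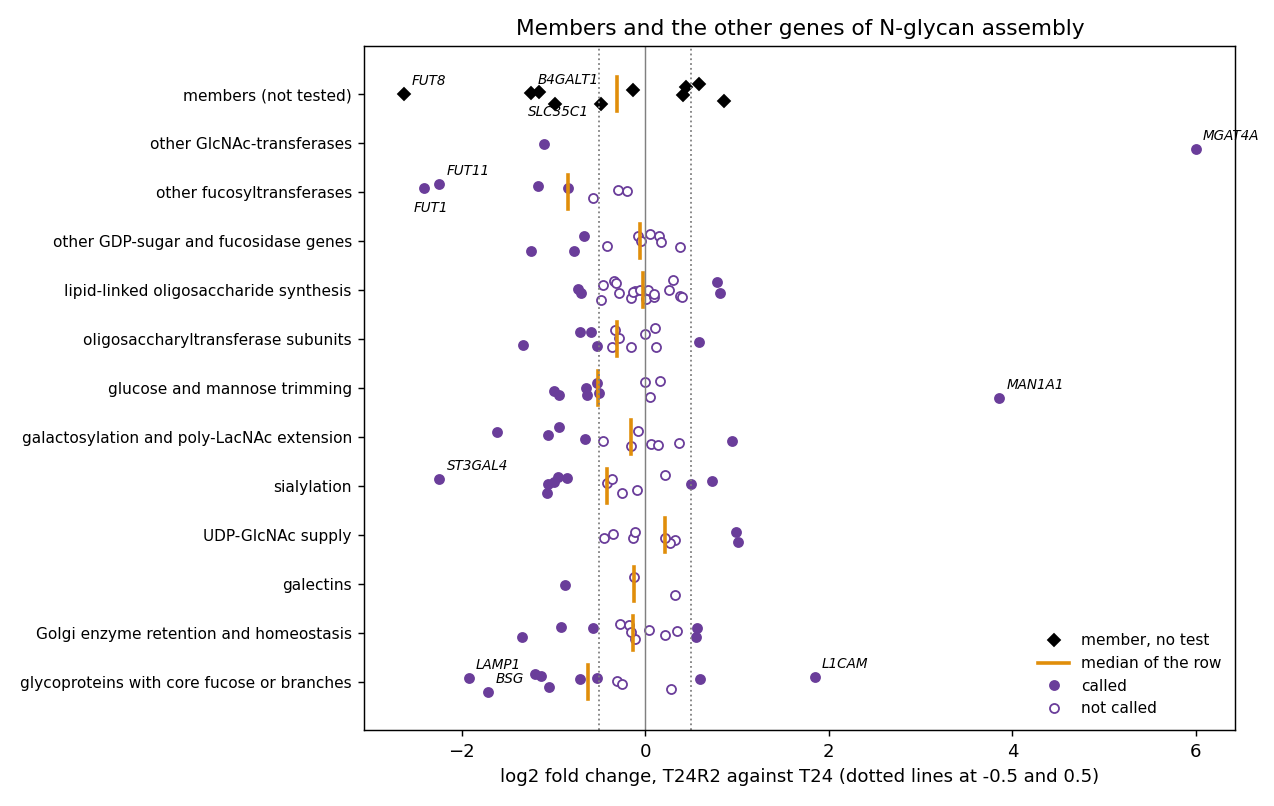
Log2 fold change, T24R2 against T24, of the 10 members (black diamonds, no test) and of the 123 tested genes of the 12 lists (filled where called, open where not). Orange bars are row medians, drawn for rows of at least 3 genes. MGAT4A and MAN1A1 stand far to the right at fitted values of 6.0 and 3.86, where the MGAT4A value rests on 3 counts or fewer in each T24 library, and FUT8 lies furthest left at -2.63.

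Upstream of the members, the enzymes of the precursor gave values in both directions. DPAGT1, which starts the precursor, fell by 0.70 and ALG3, a mannosyltransferase of its assembly, fell by 0.74 on the log2 scale (edgeR quasi-likelihood adjusted p = 5.3e-12 and 4e-11). DOLK, the dolichol kinase, rose by 0.79 (edgeR quasi-likelihood adjusted p = 4.8e-08). Of 12 subunits of the oligosaccharyltransferase, which moves the precursor to protein, 4 were called lower and 1 higher. STT3A, its catalytic subunit for nascent chains, fell from 299 ± 12.1 to 119 ± 9.24 CPM (SD, n = 5 per line), which is -1.33 as log2 fold change (SE 0.05, edgeR quasi-likelihood adjusted p = 4.4e-25). RPN2 fell by 0.72 and STT3B, the other catalytic subunit, fell by 0.59 on the log2 scale. MAGT1, a partner of STT3B, rose by 0.59, and TUSC3, its alternative in that complex, had a log2 fold change of 0.11 and was not called. STT3B and TUSC3 were named after their values were seen. Exons of an opposite-strand gene cover 26.4% of those of DPAGT1.

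Trimming prepares the substrate of MGAT1. Of 10 tested trimming and folding-check genes, 6 were called lower (60%) and 1 higher (10%), beside 26.5% and 24.9% of all tested genes. Several lower calls lay near the fold minimum of 0.5: MOGS (-0.503), PRKCSH (-0.526), GANAB (-0.64) and MAN2A1 (-0.65). These genes were named after their values were seen, and their calls under other scalings are not given here. MAN1A1, a Golgi alpha-mannosidase, rose from 2.19 ± 1.06 to 32.1 ± 3.71 CPM (SD, n = 5 per line), which is 3.86 as log2 fold change (SE 0.16, edgeR quasi-likelihood adjusted p = 3.4e-23). Its counts were 9 to 28 in T24 and 312 to 403 in T24R2. MAN1B1, a mannosidase that marks misfolded glycoproteins for degradation, fell by 0.94 and UGGT2, a folding sensor, fell by 1.00 on the log2 scale.

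For UDP-GlcNAc, the donor of all MGAT enzymes, 2 of 9 genes were called, both higher. They act in opposite directions in the pathway. GFPT2, an isozyme of its rate-limiting step, rose from 19.4 ± 1.44 to 38.6 ± 2.54 CPM (SD, n = 5 per line), which is 0.99 as log2 fold change (SE 0.08, edgeR quasi-likelihood adjusted p = 5.1e-14). GNPDA1, which returns glucosamine-6-phosphate to glycolysis, rose by 1.01 (SE 0.05, edgeR quasi-likelihood adjusted p = 1.5e-20). The more abundant isozyme GFPT1, named after its values were seen, had 103 ± 11.8 CPM in T24 and 75.4 ± 4.49 CPM in T24R2 (SD, n = 5 per line) and was not called. SLC35A3, the Golgi carrier of UDP-GlcNAc named in the same way, had a log2 fold change of -0.11.

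Golgi enzymes are held in place by the COG complex and by GOLPH3 proteins. Of 12 such genes, 3 were called lower and 2 higher. COG6 fell by 1.34 and COG1 by 0.92 on the log2 scale (edgeR quasi-likelihood adjusted p = 1.2e-19 and 1.1e-16), and 26.1% of the exon bases of COG1 are covered from the opposite strand. COG2 rose by 0.57 and GOLPH3L by 0.55 (edgeR quasi-likelihood adjusted p = 7.8e-07 and 4.2e-09). Exons of an opposite-strand gene also cover 10.3% of those of COG2. Subunits of one complex were thus called in both directions, with COG2 the only subunit called higher.

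Among 12 proteins known to carry core fucose or branched N-glycans, L1CAM, a neural adhesion molecule also found on tumours, rose from 144 ± 8.85 to 516 ± 18.6 CPM (SD, n = 5 per line). This is a log2 fold change of 1.85 (SE 0.05, edgeR quasi-likelihood adjusted p = 8.5e-31). TGFBR1, a receptor of TGF-beta, rose by 0.59 (SE 0.08, edgeR quasi-likelihood adjusted p = 3e-08). The largest falls were those of LAMP1, a heavily glycosylated lysosomal membrane protein (log2 fold change -1.92, SE 0.05), and BSG, also called CD147 (-1.71, SE 0.04). Of the galectins, which bind the galactose-ended antennae, 3 of 9 passed the filter. LGALS1 fell from 1561 ± 41.5 to 850 ± 69.1 CPM (SD, n = 5 per line), which is -0.88 as log2 fold change (SE 0.04, edgeR quasi-likelihood adjusted p = 2.2e-20). Neither of the other galectins, LGALS3 (-0.12) and LGALS8 (0.32), was called, and both were named after their values were seen.

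The members lie on 8 chromosomes, and the 3 nearest tested genes on each side of each were compared in the same fit. Of these 60 genes, 30 (50%) were called, 18 lower and 12 higher, beside 51.4% of all genes. At FUT8, 2 of 6 were called. The nearest on one side was FUT8-AS1, within the locus itself. The nearest on the other side was YBX1P1, a pseudogene whose counts may include reads of YBX1, even though multi-mapped reads were removed. YBX1P1 had 8.26 ± 1.70 CPM in T24 and 8.56 ± 1.42 CPM in T24R2 (SD, n = 5 per line) and a log2 fold change of 0.06 (edgeR quasi-likelihood adjusted p = 0.74). Without FUT8-AS1, the log2 fold changes of the neighbours of FUT8 ran from -0.15 to 0.67.

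The neighbours of other members gave a range of pictures. The 6 at MGAT4B lay within the fold minimum, with log2 fold changes from -0.35 to 0.47. At SLC35C1 5 of 6 were called, 4 of them lower, with a median of -0.96 beside -1.16 for SLC35C1. At ST6GAL1 all 6 were called lower, with log2 fold changes from -3.63 to -0.75 and a median of -1.09, while ST6GAL1 itself was at 0.86. At GMDS, 2 were called higher and 1 lower, from -2.32 to 2.46.

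Among the 10669 genes that averaged 10 CPM or more, those with the profile over the 10 libraries most like that of FUT8 were sought by the root mean square difference of centred log2 CPM. The nearest was NFE2L3, a transcription factor of the cap'n'collar family, with a difference of 0.080, from 135 ± 3.04 CPM in T24 to 21.5 ± 1.02 CPM in T24R2 (SD, n = 5 per line). PLEK2 (0.087), the metalloprotease gene ADAM19 (0.089), the homeobox gene HOXB6 (0.090) and SHROOM3 (0.101) followed. Their log2 fold changes, from -2.65 to -2.57, bracket that of FUT8, as the measure requires. PLEK2 lies on chromosome 14, as FUT8 does, and the others lie on chromosomes 7, 5, 17 and 4. No other member was among these 5 genes. Exons of opposite-strand genes cover 28.1% of those of NFE2L3 and 16.3% of those of HOXB6.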

How the data were processed

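RNA-seq libraries of T24 and T24R2, 5 each, were analysed. Alignment by the authors used STAR 2.7.0 on hg38. Multi-mapped and duplicate reads were removed through SAMtools 1.10, and fragments of GENCODE release 39 genes were counted by featureCounts 2.0.1 under strand option 1. The deposited values are raw counts per gene and library, without normalization. Of 61533 rows, 61415 had a symbol, and totals were 9257843 to 10840954.

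The lines were compared by edgeR 4.0.16 under R 4.3.3 (filterByExpr, 16181 genes; TMM; quasi-likelihood test; Benjamini-Hochberg adjustment over all tested genes), calling genes at adjusted p under 0.05 and log2 fold change past 0.5 either way. Standard errors were derived from the same fit, as the absolute log2 fold change divided by the square root of the quasi-likelihood F statistic. RPKM used the exon lengths of the tables, and exon overlaps used bedtools 2.31.1. A gene at 3 counts or fewer per library was treated as at the floor, and intervals and floors cover counting error only. The members and lists were chosen with earlier results of these data known. Named list genes were the called genes of a list, at 10 CPM or more on average, with the 2 strongest rises and 2 strongest falls, every tested gene of the fucosyltransferase and GlcNAc-transferase lists, genes overlapping members, the nearest tested genes at FUT8 and the 5 profiles most like that of FUT8. The results of some genes that this rule covers are left out of the text. In simulated counts (15926 genes, 200 changed), edgeR called 191 of the 200 and 4 unchanged genes. In the data a far larger share, 51.4% of the tested genes, was called, so the simulation gives no error rate for these calls.

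Alternatives were no scaling, upper-quartile scaling, DESeq2 1.42.0 without shrinkage, limma-voom 3.58.1, other count filters and fold minimums, a replicate block, opposite-strand counts taken off, and each library left out. Those of the neighbours were added after seeing the data. Promoter windows came from RefSeq; Python 3.11.15, numpy 2.4.6, pandas 2.3.3, SciPy 1.17.1 and matplotlib 3.10.9 served the other steps.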

Additional observations from a re-analysis of the deposited data

How the results depend on the processing

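The count of members past the fold minimum of 0.5 (6) was 5 to 8 under the other scalings, tests and count filters and 3 with a minimum of 1. With no minimum all 10 pass by definition, since members were not tested. For members, passing means the fold minimum alone, here and below, unlike the calls of other genes. Of the list genes, 55 were called, 21 with a minimum of 1 and 94 with none, and 48 without genes covered by over 10% from the opposite strand. Over all genes, 8309 were called, 4211 with a minimum of 1, 4991 under a filter at a mean of 100 counts and 10919 with no count filter. That mean filter left 15 of the 30 neighbours called, since fewer genes were tested. FUT8 in T24 was at 46.0 RPKM with unscaled library sizes and at 48.6 with TMM, and in T24R2 at 8.33 and 7.87. Leaving out single libraries, 8398 to 8466 genes, 53 to 56 list genes, 6 to 6 members and 28 to 31 neighbours passed. Upper-quartile scaling moved the median of all genes to 0.09 and split their calls into 4531 higher and 3883 lower, those of the lists into 14 higher and 36 lower. Without scaling, 17 neighbours were called higher and 17 lower.

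Replicate numbers did not pair the libraries: same-numbered libraries had correlations of -0.017 to 0.014 between their deviations, and 2 of 10 libraries correlated best with their own number. With a replicate block, 8240 genes, 55 list genes, 6 members and 30 neighbours passed. Of 606 values of the 36 named list genes under the alternatives, 598 kept their direction and side of the thresholds. The exceptions were 6 values of NEU1 and 2 of FUT2, and the cause was not tested. Genes named after their values were seen are not among the 36. At this depth, genes with few counts, such as MGAT4A in T24 and ST6GAL1, carry a large relative counting error.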
